A study of Drosophila melanogaster with 2 samples.

Results

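Oxidative phosphorylation in the fly was represented by 88 of 13945 protein-coding genes on 6 chromosome arms, chosen by their symbols. Symbols that begin with ND-, Sdh, UQCR, COX or ATPsyn place a gene in complex I, II, III, IV or V. A group of 24 has symbols ending in L, or in L and a number, which mark paralogs of another subunit gene, and is called the L paralogs here. The other 64 comprise 34 genes of complex I, 5 of complex II, 6 of complex III, 8 of complex IV and 11 of complex V. ND-MNLL was kept among the 64, because the letters MNLL name the subunit itself.

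The lists came from ChIP-seq of ADD1, a fly relative of the N-terminal part of ATRX that is known as a partner of HP1a in heterochromatin. The embryos were of a transgenic Drosophila melanogaster line, labelled strain CG8290, that stably expresses ADD1 with GFP fused to its C terminus, and they were collected whole at 0 to 24 h from both sexes pooled. An antibody against GFP was used on sonicated chromatin with a stated size range of 200 to 800 bp. Both biological replicates came from this single line, there is 1 group and no other condition, and the input or control was not analysed here. The labels do not say which promoter drives the fusion, and a whole embryo of this age range mixes stages and tissues. Peaks are therefore averages over many cell types, and no sample comparison other than that of the replicates was possible.

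A member was counted as having a promoter peak when a peak summit lay within 500 bp of any of its annotated transcription starts. The main list was that of 7944 peaks kept by the authors as reproducible, with an irreproducible discovery rate (IDR) below their limit. A list of 30000 peaks was called on both replicates jointly, and each replicate had its own list of 30000 peaks. Ranks order the peaks of 1 list by the authors' signal, so that rank 1 is the strongest, and signals are given only within a list because their scale is not stated. Positions are in bp along the gene's strand from the nearest start of that gene, and negative positions are upstream. Read depth is unknown, so no detection limit can be given.

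Oxidative phosphorylation couples the oxidation of NADH and succinate to the making of ATP in the inner mitochondrial membrane. Complexes I and II pass electrons to ubiquinone, complex III passes them on to cytochrome c, and complex IV delivers them to oxygen. The proton gradient built by complexes I, III and IV drives complex V, the ATP synthase. Most subunits are encoded in the nucleus and used in nearly all cells, whereas many duplicated subunit genes of Drosophila are known for expression biased to the testis.

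The promoters of 5 members with an IDR peak are shown first, because their peaks span ranks 566 to 6383 of the IDR list and 4 of them, all but COX8, hold a word discussed later. Each is read 5′ to 3′ on the gene's strand from genome Release 6 (dm6), up to 20 bases past the most upstream start. Capitals mark any match, on either strand, to GGTCACACT, the word of the promoter protein M1BP, or to TATCGATA, the word of DREF and of the insulator protein BEAF-32. ATPsynC, the ring subunit of ATP synthase, lies on the minus strand of chr3R:31219610-31219810, shown from 180 bases before the start, and its summit was 71 bp before the start. COX8, a small subunit of complex IV, is at chr3L:21539427-21539597 on the minus strand, shown like the next 3 from 150 bases before the start, and its summit was 44 bp before the start. ND-B17, an accessory subunit of complex I, is at chr2L:15751058-15751228 on the minus strand, with its summit 81 bp before the start. ND-15 is at chr2L:114576-114746 on the plus strand, with its summit 89 bp before the start. ND-B14.5A is at chrX:2172376-2172546 on the plus strand, with its summit 5 bp after the start.
ATPsynC: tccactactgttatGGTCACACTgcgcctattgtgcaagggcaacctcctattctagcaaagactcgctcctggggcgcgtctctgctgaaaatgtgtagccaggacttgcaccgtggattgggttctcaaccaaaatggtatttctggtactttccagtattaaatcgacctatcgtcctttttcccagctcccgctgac
COX8: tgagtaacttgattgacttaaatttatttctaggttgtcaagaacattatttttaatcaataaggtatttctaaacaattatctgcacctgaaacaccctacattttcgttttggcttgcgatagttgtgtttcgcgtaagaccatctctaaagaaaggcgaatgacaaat
ND-B17: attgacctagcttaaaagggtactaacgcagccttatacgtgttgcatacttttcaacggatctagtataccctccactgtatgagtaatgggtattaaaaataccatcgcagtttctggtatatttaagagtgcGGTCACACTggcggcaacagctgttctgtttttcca
ND-15: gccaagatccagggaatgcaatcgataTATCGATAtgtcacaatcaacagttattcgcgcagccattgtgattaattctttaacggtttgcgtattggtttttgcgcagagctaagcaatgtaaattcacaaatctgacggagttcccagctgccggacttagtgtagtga
ND-B14.5A: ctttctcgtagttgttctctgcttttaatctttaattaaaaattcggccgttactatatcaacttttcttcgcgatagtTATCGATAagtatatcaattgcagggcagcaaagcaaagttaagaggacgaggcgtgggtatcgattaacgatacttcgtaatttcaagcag

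The promoters of a pair of members without a peak in any list are shown for contrast. ND-18, an accessory subunit of complex I, lies on the plus strand of chrX:19492271-19492441 and carries the M1BP word across its start. COX7AL, an L paralog of complex IV, lies on the plus strand of chr3R:8343489-8343689, shown from 180 bases before the start, and was the single L paralog with that word.
ND-18: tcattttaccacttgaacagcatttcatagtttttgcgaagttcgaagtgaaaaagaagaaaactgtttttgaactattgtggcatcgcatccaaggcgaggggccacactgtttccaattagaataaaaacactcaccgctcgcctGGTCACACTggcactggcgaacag
COX7AL: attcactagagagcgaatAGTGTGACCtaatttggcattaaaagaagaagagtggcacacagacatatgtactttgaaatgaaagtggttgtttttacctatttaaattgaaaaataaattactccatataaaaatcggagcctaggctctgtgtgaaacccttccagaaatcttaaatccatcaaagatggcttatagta

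COX7A, the gene from which COX7AL takes its name, has the DREF word across its most upstream start and no peak in any list, and 30 bases of it at chr3R:8341027-8341056 are shown, from 13 before that start to 16 after it on the minus strand.
COX7A: cgacatcgatgTATCGATAatacatcgata

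An IDR promoter peak was found at 35 of the 88 members (39.8%), against 26.1% of all protein-coding genes. All 35 were among the 64 members that are not L paralogs, where the share was 54.7% (exact 95% interval 41.7 to 67.2%), and none was among the 24 L paralogs (0 to 14.2%). These intervals cover counting error only, and the replicates give the spread between samples. With only the 7944 strongest peaks of each replicate, 51.6% of the 64 members had one in replicate 1 and 57.8% in replicate 2, against 25.8% and 29.0% of all protein-coding genes. With the whole replicate lists the shares were 56.2% and 76.6% of the 64 members, against 38.0% and 44.7% of all protein-coding genes. At equal list length the members exceeded all genes by more than the replicates differed from each other. With the whole lists this held for replicate 2 but not for replicate 1, and the members were above all genes in both replicates.

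Without their L paralogs, the members fell between other large housekeeping families in the plot of shares by gene family. The 64 members had a peak in 54.7%, the 73 mitochondrial ribosomal protein genes in 42.5%, the 88 cytoplasmic ribosomal protein genes in 78.4% and the 33 genes of the vacuolar proton pump in 33.3%. The intervals of the 64 members and of the cytoplasmic ribosomal protein genes, 68.4 to 86.5%, did not overlap. Those of the 64 members and of the mitochondrial ribosomal protein genes, 31.0 to 54.6%, did. The other families were taken whole by symbol. With the L paralogs included, all 88 members had a peak in 39.8%, below the mitochondrial ribosomal protein genes. The order of the members and that family thus depends on leaving out the L paralogs. None of these differences between families was tested.

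**Figure D1:**
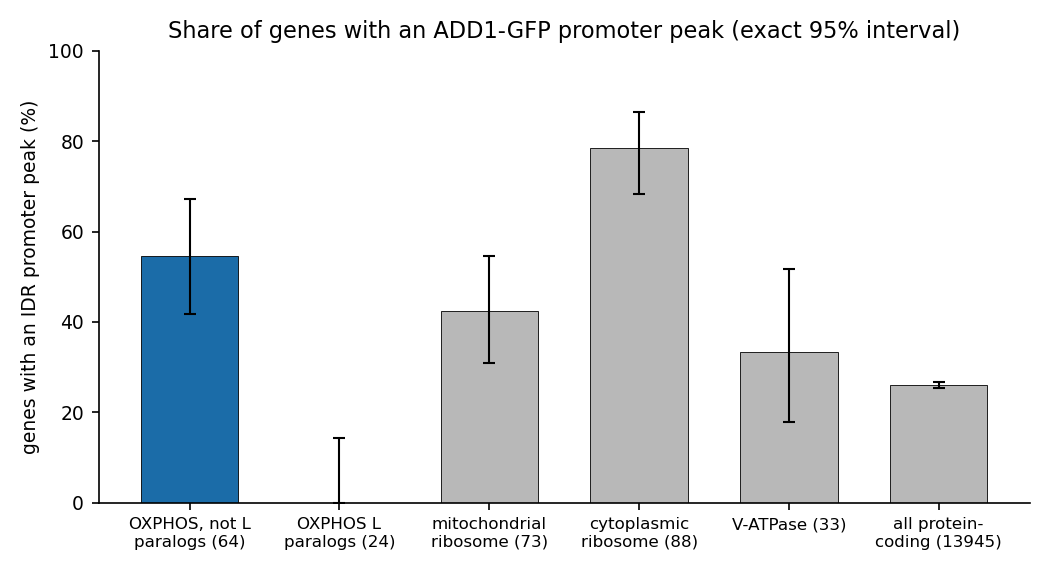
The bars give the percentage of genes with an IDR promoter peak, the whiskers the exact 95% interval (counting error only), and the number in brackets the genes in each family. The 64 members that are not L paralogs stand at 54.7%, the 24 L paralogs at 0 and all protein-coding genes at 26.1%.

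Every complex had members with a peak. Among the members that are not L paralogs, an IDR promoter peak was found at 17 of 34 in complex I, 3 of 5 in complex II, 4 of 6 in complex III, 6 of 8 in complex IV and 5 of 11 in complex V. The exact 95% intervals overlapped between all 5 complexes, from 16.7 to 76.6% in complex V to 34.9 to 96.8% in complex IV, so no order among the complexes can be read from these counts. Within complex I, 2 of the 7 nuclear core subunits, which form the arm that carries electrons to ubiquinone, and 15 of the 27 accessory subunits had a peak. Their intervals, 3.67 to 71.0% and 35.3 to 74.5%, overlapped as well.

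**Figure D2:**
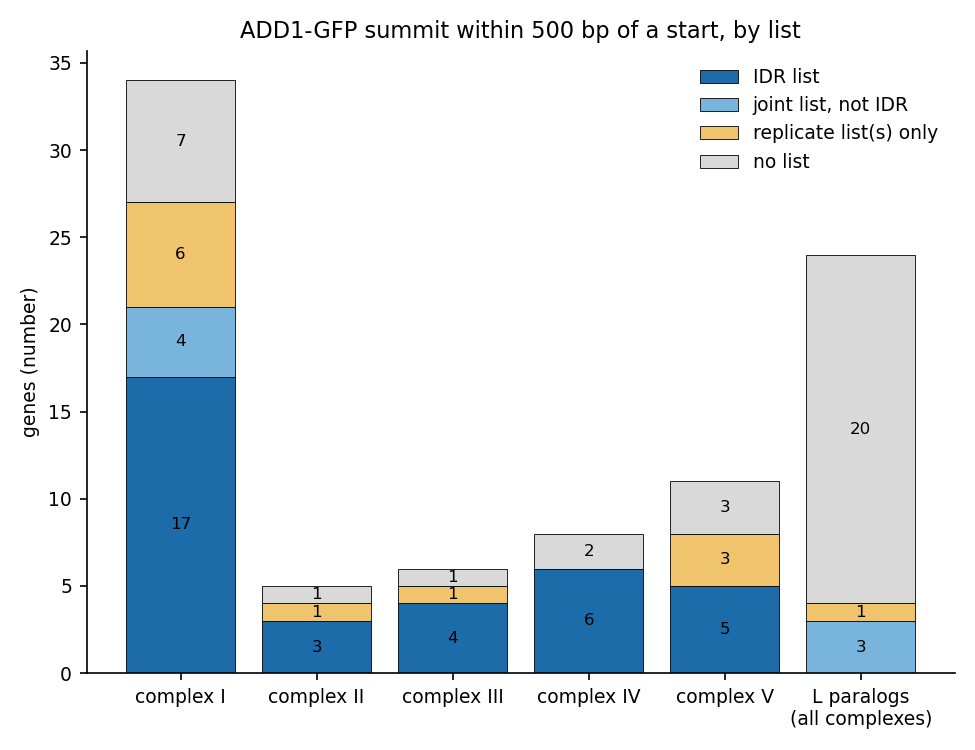
The bars give the number of genes in each complex without its L paralogs, and the L paralogs of all complexes together, divided by the list in which a summit lay within 500 bp of a start. The IDR list holds 17, 3, 4, 6 and 5 members of complexes I to V, and 20 of the 24 L paralogs are in no list.

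In complex I the strongest peak lay at ND-ASHI, an accessory subunit. It had rank 50 of 7944 in the IDR list with a signal of 2554, rank 72 in replicate 1 and rank 30 in replicate 2, and it was the strongest of all 88 members. Its summit lay 262 bp upstream of ND-ASHI and 260 bp upstream of Fum1 on the opposite strand. Fum1 encodes fumarase, the enzyme of the citrate cycle that acts on the product of complex II, and the peak is nearly as far from one gene as from the other.

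ND-MWFE, another accessory subunit, followed at IDR rank 376 with a signal of 964, rank 262 in replicate 1 and rank 1036 in replicate 2. Its summit was 194 bp upstream of ND-MWFE but 27 bp from the start of TppII, a tripeptidyl peptidase. ND-B17 had IDR rank 1052 and a signal of 571, with rank 1156 in replicate 1 and rank 1108 in replicate 2, 81 bp upstream of its own start and with no other coding start within 500 bp. ND-51, the core subunit that binds FMN and NADH, had IDR rank 1315 and a signal of 512, with rank 852 in replicate 1 and rank 3455 in replicate 2. The replicates thus placed ND-B17 alike and ND-MWFE and ND-51 higher in replicate 1.

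The other 13 members of complex I with an IDR peak had ranks from 2322 to 7901. They were ND-B8 (rank 2322), ND-42 (2588), ND-13A (3142), ND-SGDH (3357), ND-B22 (4085), ND-39 (4198), ND-AGGG (4340), ND-13B (4596), ND-B14.5A (5831), ND-49 (5906), ND-MLRQ (5924), ND-15 (6383) and ND-B14.5B (7901). ND-49, a core subunit next to the ubiquinone site, is on chromosome 4. The human counterpart of ND-MLRQ has been assigned to complex IV, but the gene was kept under complex I by its symbol. The peak of ND-42 lay 23 bp from the start of Cchl, the lyase that attaches heme to cytochrome c, and 372 bp from ND-42. The peak of ND-15 lay at the most upstream of its 3 annotated starts, which is 40363 bp before the next one, and no summit lay within 500 bp of the other 2 in the IDR list.

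Complex II, which is also the succinate dehydrogenase of the citrate cycle, had peaks at 3 of its 4 structural subunits. SdhC, a membrane anchor, had IDR rank 2337 and a signal of 363, with rank 3004 in replicate 1 and rank 1844 in replicate 2. That summit was 419 bp upstream of SdhC and 21 bp from the start of Tctp, and a second and weaker summit of rank 7429 lay 4 bp from the start of SdhC itself. SdhD, the other membrane anchor, had IDR rank 2660 and a signal of 333, with rank 2694 in replicate 1 and rank 3340 in replicate 2, 17 bp upstream of its start. SdhB, the iron-sulfur subunit, had IDR rank 4050 and a signal of 240.0, with rank 4064 in replicate 1 and rank 5459 in replicate 2, 24 bp upstream. SdhA, the flavoprotein, had a summit only in replicate 2, at rank 24224, and the assembly factor Sdhaf3 had none in any list.

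Complex III had peaks at 4 of 6 members. UQCR-14 led with IDR rank 1759 and a signal of 430, rank 1908 in replicate 1 and rank 1687 in replicate 2, and its summit lay 1 bp upstream of its only start. UQCR-Q had IDR rank 2637 and a signal of 336, with rank 2636 in replicate 1 and rank 3281 in replicate 2, 35 bp upstream. UQCR-C2, a large core subunit, had IDR rank 3126 and a signal of 296, with rank 2909 in replicate 1 and rank 3444 in replicate 2, 12 bp upstream. UQCR-11 had rank 3899. All 4 summits lay within 35 bp of the member's own start, and the replicates placed the first 3 at similar ranks. Of the other 2 members, UQCR-C1, the second core subunit, had a summit in replicate 2 alone and UQCR-6.4 had none.

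Complex IV, cytochrome c oxidase, had peaks at 6 of its 8 members, all with a summit in both replicates. COX6B, which faces the intermembrane space, had IDR rank 405 and a signal of 938, with rank 560 in replicate 1 and rank 287 in replicate 2. Its summit, 46 bp upstream, also lay within 500 bp of CG18809, which shares the same start, and of CG33932 and Rpp20 on the opposite strand. COX8 had IDR rank 1134 and a signal of 549, with rank 1152 in replicate 1 and rank 1403 in replicate 2. COX7B had IDR rank 1718 and a signal of 436, with rank 1179 in replicate 1 and rank 3387 in replicate 2, 122 bp upstream. COX5A (rank 2483), COX7C (2682) and COX5B (3138) followed. The peak counted for COX7C lay 267 bp downstream of its start and 1 bp from the start of oys, an acyltransferase gene on the opposite strand, and a second one of rank 7667 lay 126 bp downstream of its other start. COX4 and COX7A were the 2 members with no summit in any list.

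Complex V had peaks at 5 of 11 members, and 3 of them were among the 10 strongest of the 88. ATPsynC had IDR rank 566 and a signal of 795, with rank 839 in replicate 1 and rank 379 in replicate 2. ATPsynF, a subunit of the membrane part, had IDR rank 677 and a signal of 718, with rank 829 in replicate 1 and rank 619 in replicate 2, 26 bp upstream of its start. ATPsynbeta, the catalytic subunit, is on chromosome 4 and had IDR rank 1122 and a signal of 552, with rank 1412 in replicate 1 and rank 947 in replicate 2, 46 bp upstream. These 3 ranked higher in replicate 2 than in replicate 1. ATPsynD, of the peripheral stalk, had rank 3465 and its summit lay 41 bp from its own start and 54 bp from that of mRpL55, a mitochondrial ribosomal protein gene. ATPsynCF6, also of the stalk, had rank 6405, with Sec13 as its neighbour.

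Although many members had peaks, the peaks were of ordinary strength. The median signal of the strongest promoter peak was 332 over the 35 members and 335 over the 3638 protein-coding genes with a peak, and the median ranks were 2682 and 2644.5. The signals of the members ranged from 131 to 2554. Among the strongest 10% of the IDR peaks were those of 5 of the 35 members, or 14.3%, against 16.4% of the protein-coding genes with a peak. The median width of the peaks was 208 bp, against 231 bp over the whole IDR list.

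The summits lay close to the starts and mostly upstream. The median position was -46 bp over the 35 members and -54 bp over all protein-coding genes with a peak, and 31 of the 35 summits were upstream and 4 downstream. The member's own start was the nearest start of any gene in 25 of the 35 (71.4%), against 80.3% of all protein-coding genes with a peak. In these 25 the summit lay between -122 and 10 bp. In the other 10, a neighbour on the opposite strand had the nearer start, 1 to 260 bp away, and the member's own start was up to 419 bp from the summit. They were ND-ASHI, ND-MWFE, ND-51, ND-B8, SdhC, ND-42, COX7C, COX5B, ND-SGDH and ND-39. In these promoters the strongest peak cannot be assigned to the member rather than to the neighbour. A weaker IDR summit with the member's own start nearest lay at SdhC (4 bp), COX7C (126 bp downstream of its other start) and ND-39 (362 bp upstream of its other start), so 28 of the 35 members had at least 1 summit nearest to their own start.

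**Figure D3:**
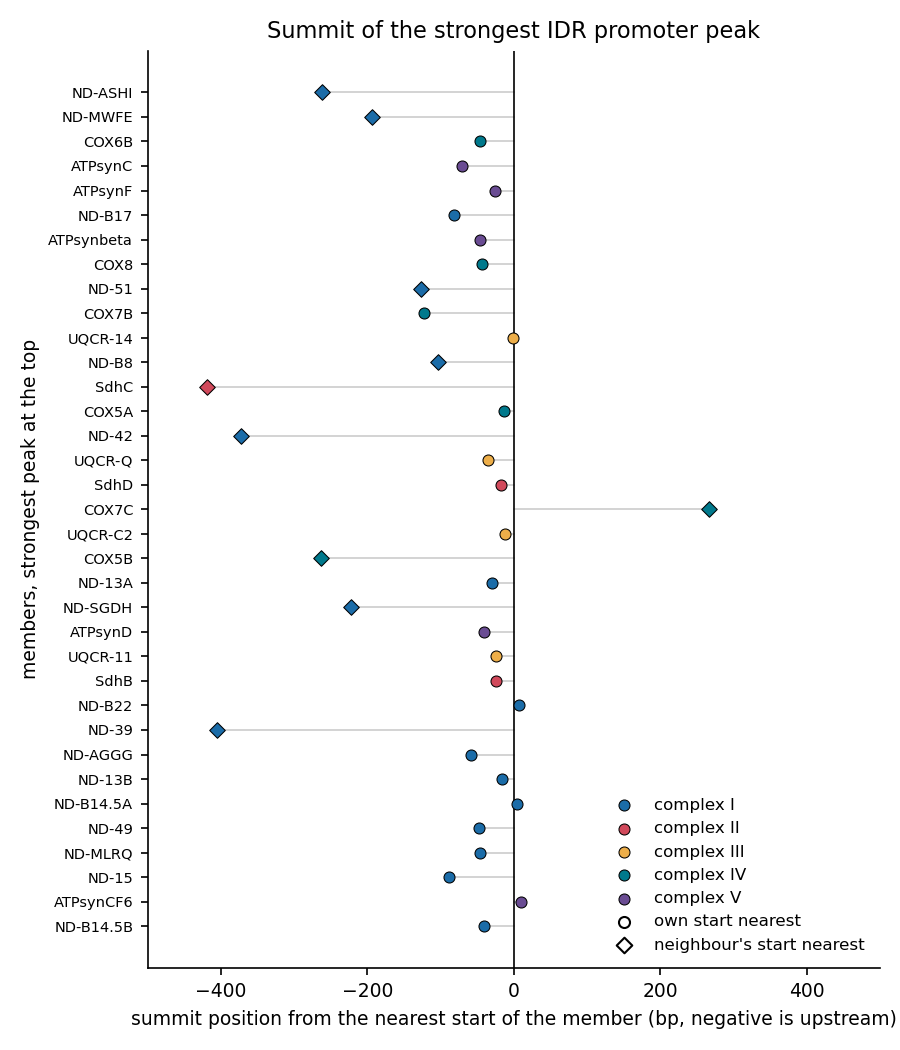
Each point is the summit of the strongest IDR promoter peak of 1 of the 35 members, ordered by rank with the strongest at the top, and the horizontal axis gives its distance in bp from the nearest start of that member. Circles, where the own start is nearest, lie between -122 and 10 bp, and diamonds, where a neighbour's start is nearer, reach from -419 to 267 bp.

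Among the strongest summits, those farthest inside the 500 bp limit were of SdhC at 419 bp and ND-39 at 406 bp, and SdhC also had the summit 4 bp from its start. Second summits of ATPsynCF6 at 497 bp and of ATPsynC at 409 bp lay as far inside, and both genes had a nearer and stronger one. Nearest outside it were COX7AL2, 548 bp from an IDR summit, COX7CL at 741 bp and ATPsynE at 878 bp. In 19 of the 35 members the 500 bp around the summit held a second coding start, in 18 of them on the opposite strand. In 16 members no other coding start lay there, and in each of these the own start was nearest.

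Members with and without a neighbouring start had peaks at similar shares. Another gene's start lay within 1000 bp in 48 of the 64 members, and 27 of these (56.2%) had an IDR peak, against 33.3% of all protein-coding genes with such a neighbour. Of the 16 without one, 8 (50%) had a peak, against 19.5% of all protein-coding genes without one. These 8 were ATPsynC, UQCR-14, SdhD, UQCR-C2, UQCR-11, SdhB, ND-B22 and ND-MLRQ. Of the 8 isolated members without a peak, ND-20, Sdhaf3, COX4 and ATPsynO had no summit in any list.

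By chromosome, IDR peaks were found at 10 of 13 members on 3L, 8 of 12 on 2L, 7 of 14 on 3R, 4 of 11 on 2R, 4 of 12 on X and 2 of 2 on chromosome 4, again without L paralogs. On X the members' share was 33.3%, against 28.6% of all its protein-coding genes, and on chromosome 4 it was 2 of 2, against 57.5%. With so few members per chromosome the intervals are wide, 9.92 to 65.1% for the members on X. The shares of all protein-coding genes on 2L, 2R, 3L and 3R were not computed, so no order among the chromosomes can be read from these counts.

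At members with an IDR peak the replicates mostly agreed, which is favoured because that list keeps only reproducible peaks. Over the 64 members that are not L paralogs, 36 had a summit in the whole list of replicate 1 and 49 in that of replicate 2. Of the 35 members with an IDR peak, 33 had a summit within 500 bp in both replicate lists, and ND-B8 and ND-B14.5A had one in replicate 2 alone, at ranks 3234 and 5256. The strongest summits of the replicates were a median of 17 bp and at most 69 bp apart, and 31 were within 50 bp. Over the 38 members with a summit in both lists the ranks correlated with a Spearman rho of 0.826, against 0.858 over 4818 protein-coding genes, given as a description because members may share promoters and both lists come from 1 line. No p-value between replicates was computed.

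**Figure D4:**
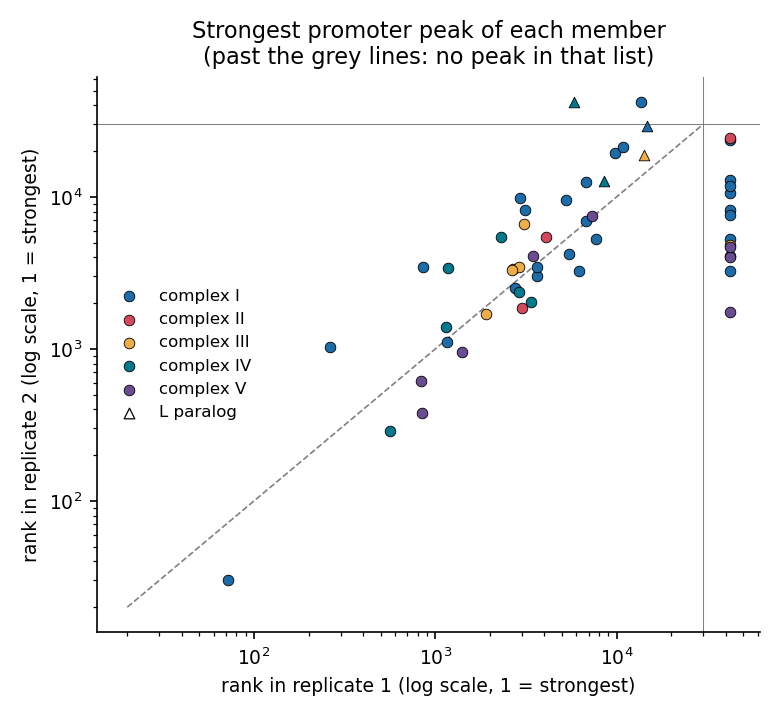
Each point is 1 member, placed by the rank of its strongest promoter peak in replicate 1 and in replicate 2 on log scales, where rank 1 is the strongest, and triangles are L paralogs. Points past the grey lines have no peak in that list, and 14 members lie past the right-hand line, in replicate 2 alone.

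Members outside the IDR list were not all devoid of peaks. In the joint list, 42 of the 88 members had a promoter summit (47.7%), against 37.9% of all protein-coding genes, which adds 4 members and 3 L paralogs. The 4 members were all of complex I. ND-MNLL had joint rank 8029, just below the 7944 of the IDR list, ND-B16.6 had 13089, ND-B14.7 had 18368, and ND-24, a core subunit, had 23468. The joint summit of ND-24 lay at -462 bp, near the limit of the window. Its strongest summit in replicate 2 was another, at -34 bp and rank 8249, and replicate 1 had none. A further 12 had a summit in a replicate list but none in the joint list, and 34 had none in any list.

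Of those 12, ND-19 had a summit in both replicates, at rank 9845 in replicate 1 and rank 19454 in replicate 2. COX4L had one in replicate 1 alone, at rank 5804 and 494 bp downstream of its start. The other 10 had one in replicate 2 alone. These were ATPsynB, a peripheral stalk subunit, at rank 1743, ATPsynG at 4037, ND-B18 at 4078, ATPsyngamma, of the central stalk, at 4689, UQCR-C1 at 4817, ND-B12 at 7557, ND-ACP, the mitochondrial acyl carrier protein, at 10651, the core subunit ND-75 at 12935, ND-B14 at 23761 and SdhA at 24224. Their summits lay within 50 bp of a start in 8 of the 10. Of the members that are not L paralogs, ND-B14.7 had a summit in replicate 1 (rank 13613) and the joint list but not in replicate 2.

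The first 6 of these, from ATPsynB to ND-B12, were within the 7944 strongest peaks of replicate 2 and had no joint summit. That is 9.38% of the 64 members, against 4.37% of all protein-coding genes. Of the genes with a promoter peak among these strongest peaks of replicate 2, it is 6 of 37 members and 610 of 4044 protein-coding genes. These shares are similar, so the lack of a joint summit is not particular to the members. Of the 6, 3 belong to complex V. With them, complex V had a promoter peak at 8 of 11 members in replicate 2, against 5 of 11 in the IDR list. Over the whole lists, 8.37% of the 7944 strongest peaks of replicate 2 had no joint summit within 500 bp, and 2.54% of those of replicate 1. ATPsynB is the clearest case, with a signal of 198 and a summit 6 bp after its start in replicate 2 and no summit within 500 bp in replicate 1 or the joint list. The part that depth or peak calling played was not tested.

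No peak in any list was found at 14 of the 64 members. The share of all protein-coding genes without a peak in any list was not computed. In the single whole lists, only 38.0% of them had a promoter summit in replicate 1 and 44.7% in replicate 2. This count, and the like counts of all 88 members and of the L paralogs, can therefore not be read as many or few. They were ND-18, ND-B15, ND-B17.2, ND-PDSW and the core subunits ND-20, ND-23 and ND-30 of complex I, Sdhaf3, UQCR-6.4, COX4 and COX7A, and ATPsynE, ATPsynO and ATPsyndelta of complex V. Among the 29 members without an IDR peak, the nearest IDR summit was between 878 and 94612 bp away, with a median of 8817 bp.

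The L paralogs stood apart from the genes they resemble. None of the 24 had an IDR peak, although 12 of them take their name from a gene that had one. They comprise 6 paralogs in complex I (ND-20L, ND-24L, ND-49L, ND-51L1, ND-51L2 and ND-B14.5AL), 3 in complex II (SdhAL, SdhBL and SdhCL), 3 in complex III (UQCR-11L, UQCR-14L and UQCR-6.4L), 8 in complex IV (COX4L, COX5BL, COX6AL, COX6AL2, COX6CL, COX7AL, COX7AL2 and COX7CL) and 4 in complex V (ATPsynCF6L, ATPsynGL, ATPsynbetaL and ATPsynepsilonL). Their nearest IDR summit was a median of 11156.5 bp away, from 548 bp at COX7AL2 to 62864 bp at SdhCL.

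Only COX7AL2, ND-B14.5AL and UQCR-6.4L had a summit in the joint list. COX7AL2 had joint rank 10419, with rank 8494 in replicate 1 and rank 12680 in replicate 2, 156 to 174 bp downstream of a start. ND-B14.5AL had joint rank 14925, with rank 14716 in replicate 1 and rank 29258 in replicate 2. These ranks are of different sites, at -473 bp in the joint list, -454 bp in replicate 1 and 158 bp in replicate 2. UQCR-6.4L had joint rank 15167, with rank 14230 in replicate 1 and rank 18749 in replicate 2. All 3 are well below the IDR list, and 20 of the 24 had no summit in any list.

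Several L paralogs lie near their parent, although their neighbouring starts differ. Another gene's start lay within 1000 bp of COX5B but not of COX5BL. An opposite-strand start within 1000 bp, that of oys, lay upstream of COX7C, and COX7CL had no such neighbour. COX5BL starts 1631 bp from COX5B, whose peak had rank 3138, and its nearest IDR summit was 1894 bp away. COX7CL starts 1995 bp from COX7C, whose peak had rank 2682, and its nearest IDR summit was 741 bp away. In both pairs the parent was counted with a peak and the paralog was not, but these summits were nearer to a neighbour, 35 bp from IFT52 and 1 bp from oys. COX7AL starts 2770 bp from COX7A, and neither had a peak. The parents of COX6AL, COX6AL2, COX6CL and ATPsynepsilonL are levy, cype and sun, which have other symbols and had a joint-list peak but no IDR peak. Of these, levy had rank 2404 in replicate 2 and rank 26999 in replicate 1, cype rank 8415 in replicate 1 and 8966 in replicate 2, and sun rank 15243 in replicate 2 alone. The summits lay at 196 bp in replicate 1 and -284 bp in replicate 2 for levy, and at -3 and -438 bp for cype. The ranks of the replicates may thus be of different sites.

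The L paralogs also differed in gene structure. A single exon was annotated in 8 of the 24 L paralogs (33.3%), in none of the 64 other members and in 16.1% of all protein-coding genes. The median gene length was 744 bp in the L paralogs, 1148 bp in the other members and 2166 bp in all protein-coding genes. Another gene's start lay within 1000 bp in 7 of the 24 L paralogs (29.2%), in 48 of the 64 other members (75%) and in 48.0% of all protein-coding genes. Of the 17 L paralogs without such a neighbour, 0 had an IDR peak, against 19.5% of all protein-coding genes without one. The exact interval for these 17, 0 to 19.5%, just includes that share. A lack of peaks beyond counting error can therefore not be read from the isolated L paralogs alone. The labels give no expression values, and whether the L paralogs are transcribed in these embryos was not tested.

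Of 8 words searched on both strands from 250 bp before to 50 bp after each start, 6 were more frequent in the 64 members than in all protein-coding genes. GGTCACACT was present in 17 of the 64 members (26.6%), against 6.78% of all protein-coding genes, and TATCGATA in 13 of 64 (20.3%), against 10.2%. With 100 bp on either side of the start, TATCGATA was in 8 of 64 (12.5%), against 8.49%. The spellings of the NRG core, which follow, were the others beside TATAAA. Among the 24 L paralogs GGTCACACT was present in 1 and TATCGATA in 0. GAGAGAG, the word of the GAGA factor, was present in none of the 64, against 9.09% of all protein-coding genes, and CGCATGCG, the core of the word of NRF-1, whose fly relative is ewg, in none, against 0.896%. TATAAA was present in 42 of 64 (65.6%), against 51.3%, and the NRG spelling TTATATAA in 5 of 64 (7.81%), against 3.25%. Neither excess held with 100 bp on either side of the start. There TATAAA was in 22 of 64 (34.4%), against 34.1%, and TTATATAA in 1 of 64 (1.56%), against 1.38%. GGTCACACT stayed higher there, in 15 of 64 (23.4%), against 5.85%. A match is a description and not a binding site, and its absence says only that these letters are not in this window.

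Within the members, neither word went clearly with the peak. GGTCACACT was present in 11 of the 35 members with an IDR peak (31.4%) and in 6 of the 29 without one (20.7%), and TATCGATA in 6 of 35 (17.1%) and in 7 of 29 (24.1%). For TATCGATA this order turned with 100 bp on either side, to 5 of 35 (14.3%) and 3 of 29 (10.3%). Of all protein-coding genes with an IDR peak, 10.1% held GGTCACACT, 15.4% TATCGATA and 16.9% GAGAGAG, from 250 bp before to 50 bp after the start. The share of TATCGATA in the members with a peak was thus near that of all genes with one, and that of GGTCACACT was higher. Within 100 bp of the summit, TATCGATA was found in 4 of the 35 members and GGTCACACT in 5, at median distances of 43.5 and 68 bp. The closest was ND-B14.5B, where the middle of TATCGATA lay 2 bp from the summit, and in ND-15, printed above, it lay 30 bp away. In ND-B17, also printed above, GGTCACACT lay 70 bp from the summit. ND-18 and COX7A carry these words across their starts and had no peak in any list.

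The core of the NRG element, which has been described near nuclear respiratory genes of Drosophila, was searched in the spellings TTACGTAA, TTACATAA and TTATATAA. Within 100 bp on either side of a start, TTACGTAA or TTACATAA was present in 14 of the 64 members (21.9%), in 0 of the 24 L paralogs and in 1.76% of all protein-coding genes. With TTATATAA added it was 15 of 64 (23.4%), against 3.11%. TTACGTAA or TTACATAA was present in 3 of the 35 members with an IDR peak (8.57%) and in 11 of the 29 without one (37.9%). Of those 11, 7 had a summit in another list, and with a peak in any list taken as a peak the counts were closer, 10 of 50 members with one (20%) and 4 of 14 without one (28.6%). From 250 bp before to 50 bp after the start the counts were 3 of 35 with an IDR peak and 5 of 29 without one, and with any list they turned, to 7 of 50 with a peak (14%) and 1 of 14 without one (7.14%). TTATATAA alone was present in that window in 3 of the 35 and in 2 of the 29. With or without TTATATAA, in both windows and by both ways to take a peak, the share was lower with a peak in 7 of 8 readings, 4 of 4 by the IDR list and 3 of 4 by any list. These readings share their members, the spellings were joined after the data had been seen, and no difference was tested. Over all protein-coding genes the order was the other way. Within 100 bp, TTACGTAA or TTACATAA was present in 82 of 3638 genes with an IDR peak (2.25%), against 1.76% of all. From 250 bp before to 50 bp after the start it was 4.21%, against 3.32%. The element's sequence in 6 members is shown here with 11 bases on either side, picked because the word lies from 48 to 90 bp after the start in each. ND-B14.7, with its word at 65 bp and a summit in replicate 1 and the joint list, also lies in that range and is not shown. None of the 6 had an IDR peak, ND-30, ND-18 and COX7A had no summit in any list, and ND-B18, ND-ACP and ATPsyngamma had one in replicate 2. The range was taken from these same data, so the lack of an IDR peak in the 6 is no separate result. Capitals mark the core, each line is read 5′ to 3′ on the gene's strand, and positions of the first base are counted from the start. They are ND-30 (+48, chr3L:3159512-3159541, minus strand), ND-18 (+58, chrX:19492468-19492497, plus strand), ND-B18 (+61, chrX:15063969-15063998, plus strand), COX7A (+72, chr3R:8340809-8340838, minus strand), ND-ACP (+76, chr3L:1330014-1330043, plus strand) and ATPsyngamma (+90, chr3R:29749055-29749084, minus strand).
ND-30: acattttagcaTTACATAAattgtcaaaaa
ND-18: tgttccaaattTTACGTAAttcgtattttg
ND-B18: agaaaaacaatTTACGTAAtttaattgagc
COX7A: cctacatccaaTTACGTAAgttccctggag
ND-ACP: ctccagcacttTTACATAAtcttgaaaact
ATPsyngamma: ataattatgagTTACATAAattcaaattaa

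Of the 12 matches in members without an IDR peak, 7 began from 48 to 90 bp after the start, among them that of ND-B14.7 at 65 bp, and the other 5 began from -86 to 2 bp. In COX6B, ND-49 and ATPsynC, the 3 members with both the word and an IDR peak, the summit was 338, 700 and 552 bp from the word and lay at another annotated start. The nearest of these words was thus 338 bp from the IDR summit of its own gene. Within the same 100 bp and in members with an IDR peak, the median position was 5 bp for the 3 NRG words, 9 bp for the 9 M1BP words and -47 bp for the 5 DREF words.

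**Figure D5:**
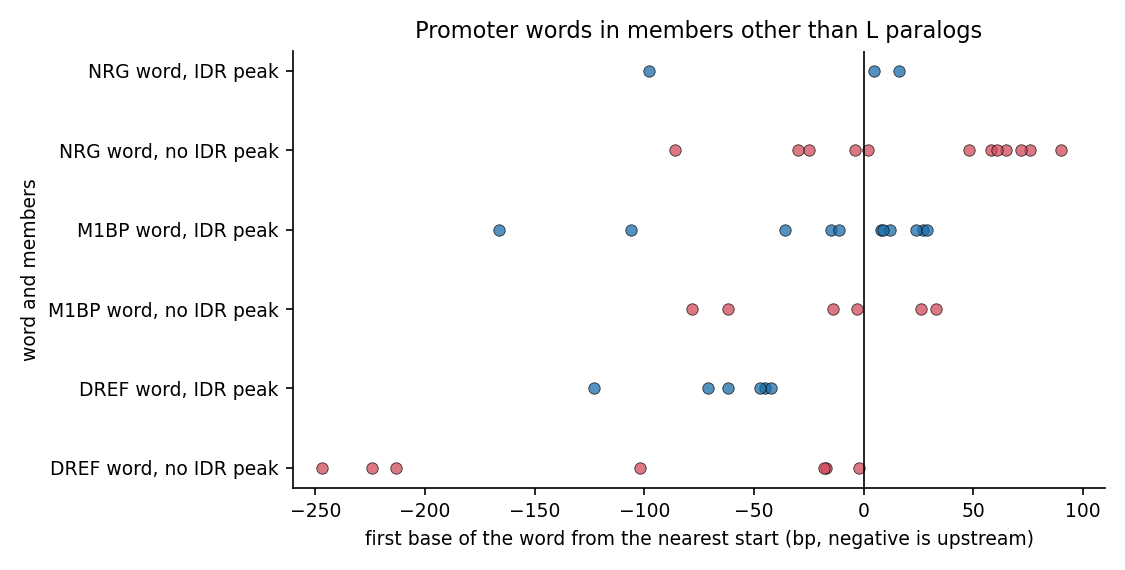
Each point is 1 match to a word in a member that is not an L paralog, placed by the distance in bp of its first base from the nearest start, for members with (blue) and without (red) an IDR peak. Of the 12 matches to the NRG word in members without an IDR peak, 7 lie from 48 to 90 bp after the start and 5 from -86 to 2 bp, and the 3 in members with one lie from -98 to 16 bp.

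In 5 short lists of genes around the respiratory chain, 33.3 to 80% of the genes had an IDR peak, against 26.1% of all protein-coding genes. The lists hold only 5 to 14 genes each and no interval was computed for them. The lowest, 3 of 9, is near the share of all protein-coding genes, so no excess can be read from each list. Of 11 further respiratory subunits and carriers whose symbols fall outside the rule, 6 had an IDR peak. These were Cyt-c-d, one of the cytochrome c genes (rank 595), blw, the alpha subunit of ATP synthase (956), ox of complex III (1182), RFeSP, the Rieske protein of complex III (1909), and sesB and Ant2, a tandem pair of adenine nucleotide translocases that share 1 summit of rank 3914. The summit of Cyt-c-d lay 338 bp downstream of its start, and Cyt-c-p, also a cytochrome c gene, had no IDR peak. Of 14 genes of the citrate cycle and pyruvate dehydrogenase, 6 had one, with Fum1 (rank 50, the peak of ND-ASHI), Ogdh (1522), Idh (2148) and the citrate synthase gene kdn (2351) the strongest, beside Scsalpha1 and ScsbetaG of succinyl-CoA synthetase. Of 5 assembly factors 2 had one, Ccdc56 and Coa7, and of 9 genes of mitochondrial transcription and replication 3. Among the latter was mtSSB, the single-strand binding protein, at rank 335 and with its summit 375 bp upstream of its start. Ccdc56 and mtTFB1 share 1 summit of rank 4878, at -465 bp from the nearest start of each, which is counted in both lists.

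Of 5 regulators of nuclear respiratory genes, 4 had an IDR peak. CrebB had rank 1066, ewg 2242, Ets97D, a subunit of the fly GABP, 2559, and crc, the fly ATF4, 6276. The fifth, srl, the fly relative of PGC-1, had a summit 9 bp upstream of its start at rank 1717 in replicate 2 and none in replicate 1. Idh3b, a subunit of isocitrate dehydrogenase, showed the reverse, with rank 918 in replicate 1 and no summit in replicate 2.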

How the data were processed

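Peak calling on 2 biological replicates of ADD1-GFP ChIP-seq in whole embryos gave 4 lists with coordinates on dm6, per the file headers and labels. The deposited signal of each peak is the authors' value on a scale that is not stated, and it was used only to rank peaks and compare medians within a list. No source used here names the peak caller, the aligner or the read number, so the depth is unknown. The IDR list equals the 7944 strongest peaks of the joint list, and the other lists are cut at 30000 peaks, which makes their length uninformative. Genes and starts came from the Ensembl 115 annotation (FlyBase 6.54) and sequence from genome Release 6. A summit within 500 bp of a start was counted for every gene there. Members and lists were chosen with earlier results of these data known. The text gives every member by complex, in full for the 10 strongest and the 3 strongest of each complex. Exact Clopper-Pearson 95% intervals were computed for the shares of gene groups, but not for words or the short lists. With 1 group no test between conditions exists, and no p-value was computed. The assignment of summits was tested on simulated peaks. Python 3.11.15, NumPy 2.4.6, SciPy 1.17.1 and matplotlib 3.10.9 were used.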

Additional observations from a re-analysis of the deposited data

How the results depend on the processing

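The counts were recomputed with windows of 200 and 1000 bp, the joint list, the stronger 50% of the IDR list, any overlap of the interval, the nearest start only, 1 main start per gene, only genes isolated by 1000 bp from any other start, and the strongest peaks of 1 replicate. Of the recomputed values, 90 stayed within 1.5 times the count or within the spread between replicates and 21 did not. With no other start within 1000 bp, the members and the members without L paralogs with a peak both numbered 8, since this leaves 16 members and 17 L paralogs to count. The L paralogs with a peak, 0 in the IDR list, numbered 2 with a window of 1000 bp, 3 in the joint list, 1 with any overlap, and 0 to 1 with either replicate left out. The single one of replicate 1 is COX4L. Complex I numbered 8 in the stronger 50% and 11 by the nearest start only. The latter by construction drops members whose every summit is nearer to a neighbour. By the nearest start only, 28 of the 64 members that are not L paralogs stayed (43.75%), against 21.7% of all protein-coding genes. In the stronger 50% the share was 37.5% of the 64, against 17.7% of all protein-coding genes. Complex V numbered 5 to 8 with a replicate left out, and 8 without replicate 1. The own start was nearest in 15 members in the stronger 50%. The median position was -38 bp with the 200 bp window, -32.5 bp by the nearest start only and -34 bp without replicate 1 (it was -43.5 bp without replicate 2). The ratio of median signals, 0.990, was 0.918 with the 200 bp window, 1.29 in the joint list, 0.831 in the stronger 50%, 0.807 by the nearest start only, 1.03 with 1 main start per gene and 0.898 to 0.944 with a replicate left out, so no difference in strength can be read from it. TATCGATA was in 8 members (12.5%) with 100 bp on either side of the start, against 8.49% of all protein-coding genes. Counting ND-MNLL as an L paralog, chosen after seeing the data, changed no count of peaks. No paired analysis was possible because the series has 1 group and no result comes from a test between groups. Unknown depth limits what an absent peak means.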
